A study of Mus musculus with 8 samples.

Results

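The pericentral Wnt-zone genes are 10 genes that hepatocytes around the central vein of the liver lobule use to answer Wnt signals or to carry out the metabolism of that zone: Glul, Oat, Cyp2e1, Axin2, Lgr5, Tbx3, Rnf43, Znrf3, Slc1a2 and Rhbg. They were chosen by name, with no threshold on a measured value, and all 10 were found among the 35975 genes to which the transcripts of the 8 livers were summed. Livers of C57BL/6J mice were collected after 2 weeks of continuous infusion into the portal vein from an osmotic pump. The comparison asked how 4-hydroxyphenylacetic acid (4-HPAA), a product of gut microbes, alters liver gene expression, with 4 mice given 4-HPAA in normal saline (55 mM in the pump, delivered at 0.25 µL per hour) and 4 mice given normal saline alone. All 8 mice had a catheter in the portal vein and a pump under the skin, and all were housed singly after surgery. The methods give an age of 8 to 10 weeks at purchase and name both sexes, and Y-linked transcripts mark all 8 livers as male. No genotype other than the strain was stated, and no batch was named in the labels. RNA came from whole pieces of liver, so that fewer pericentral cells and less RNA per pericentral cell cannot be told apart.

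The liver lobule is divided by its blood flow. Blood enters at the portal tract and leaves at the central vein, whose endothelial cells release Wnt ligands and R-spondins. In the hepatocytes next to that vein, the signal keeps beta-catenin from being degraded, and beta-catenin with TCF/LEF proteins then keeps pericentral genes on. Those cells capture the ammonia that escaped urea synthesis upstream and make glutamine from it, and they oxidize many drugs and solvents. Axin2, Rnf43 and Znrf3 are both targets and brakes of the pathway, and Lgr5 is a receptor for R-spondins.

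The stretch of DNA just before the RefSeq transcription start is shown for 4 members. Glul and Axin2 were taken as the standard pericentral and Wnt readouts. Cyp2e1 and Slc1a2 were taken because their windows held letters that were searched for as TCF/LEF sites. The sequences are the 250 bases before the start given by RefSeq on GRCm38.p6, 5′ to 3′ on the gene's strand. Capitals mark CTTTGAT or CTTTGAA, searched on both strands. Other forms of the TCF/LEF site were not searched, so a window without capitals may still hold one.
Glul, chr1:153899679-153899928, + strand: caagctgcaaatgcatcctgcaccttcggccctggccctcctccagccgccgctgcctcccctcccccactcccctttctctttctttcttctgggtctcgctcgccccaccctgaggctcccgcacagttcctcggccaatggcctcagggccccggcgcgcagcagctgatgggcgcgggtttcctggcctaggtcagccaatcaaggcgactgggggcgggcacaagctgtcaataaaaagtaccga
Axin2, chr11:108920099-108920348, + strand: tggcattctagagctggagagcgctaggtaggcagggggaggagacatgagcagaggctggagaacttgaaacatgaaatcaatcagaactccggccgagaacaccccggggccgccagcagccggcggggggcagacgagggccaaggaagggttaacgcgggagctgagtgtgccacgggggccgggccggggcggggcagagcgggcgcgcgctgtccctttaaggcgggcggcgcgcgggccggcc
Cyp2e1, chr7:140763569-140763818, + strand: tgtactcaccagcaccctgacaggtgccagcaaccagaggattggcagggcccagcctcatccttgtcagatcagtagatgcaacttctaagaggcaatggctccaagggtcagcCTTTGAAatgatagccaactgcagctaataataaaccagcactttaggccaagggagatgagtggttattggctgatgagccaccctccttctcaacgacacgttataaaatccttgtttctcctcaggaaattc
Slc1a2, chr2:102706188-102706437, + strand: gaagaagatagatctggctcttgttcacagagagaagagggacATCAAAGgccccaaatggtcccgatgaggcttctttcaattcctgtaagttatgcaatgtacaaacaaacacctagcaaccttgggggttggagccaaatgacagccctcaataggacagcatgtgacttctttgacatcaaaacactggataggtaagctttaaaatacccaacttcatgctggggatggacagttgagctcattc
Windows running from 250 bases before to 50 bases after a start were found for 6 of the 10 members, 7 windows in all because Rnf43 had 2. Of these 7 windows, 2 held the letters, against 8.65% of all 32851 windows of this length. In Cyp2e1 the match was CTTTGAA, beginning at position -135 from the RefSeq start. In Slc1a2 it was CTTTGAT on the opposite strand, printed as ATCAAAG and beginning at position -207 from the RefSeq start. A match of 7 letters is a description of the window and not evidence of binding. The Slc1a2 window held internal starts, whose transcripts had 13.7% of that gene's counts on average. The Glul, Cyp2e1 and Axin2 windows held the annotated starts of transcripts with 98.9%, 99.8% and 82.7%. Such a start could lie anywhere in the window. The main Cyp2e1 transcript, with 98.1% of the counts, is annotated to start at chr7:140763739. That base lies inside the printed sequence and after the match, so the bases printed from there on belong to that transcript. The windows of Lgr5, Tbx3, Znrf3 and Rhbg were not analysed here.

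Each library held between 29559978 and 30673398 estimated counts. All levels between libraries are given as TMM-normalized CPM, a gene's counts as a share of its library, after a TMM scaling that brings most genes to a common level. Markers of hepatocytes, the main cells of the labelled tissue, summed to 100312 to 132033 CPM. The 4 Y-linked genes summed to 152 to 180 CPM in all 8 libraries, which marks each liver as male. Red blood cell genes stood out in replicate 2 of normal saline at 2586 CPM and in replicate 4 of 4-HPAA at 738 CPM, against 156 to 380 CPM in the other libraries. Across the 12883 genes tested with edgeR's quasi-likelihood test, 0 genes (0%) passed an adjusted p of 0.05. In the same test 225 genes (1.75%) had an unadjusted p under 0.05, DESeq2 called 2 genes and limma-voom called 0. The median log2 fold change over all genes tested was 0.00072 and its median size without sign was 0.070.

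None of the 10 members passed the test between 4-HPAA and normal saline. In edgeR's quasi-likelihood test, adjusted over all genes by the Benjamini-Hochberg method, the adjusted p was 1.00 for each of them, 0 had an unadjusted p under 0.05, and DESeq2 and limma-voom also called 0 members. In 0 of the 10 did the 4 values of one group lie wholly above those of the other, beside 1.2% of all genes tested. The estimate was above 0 for 4 members and below 0 for 6, with a median of -0.040 on the log2 scale. The widest interval reached from -0.93 to 0.41, for Lgr5, and the narrowest from -0.47 to 0.12, for Znrf3. The coefficient of variation within groups lay between 16.1% for Znrf3 and 28.9% for Axin2, above the median of 12.5% over all genes in each of the 10.

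**Figure D1:**
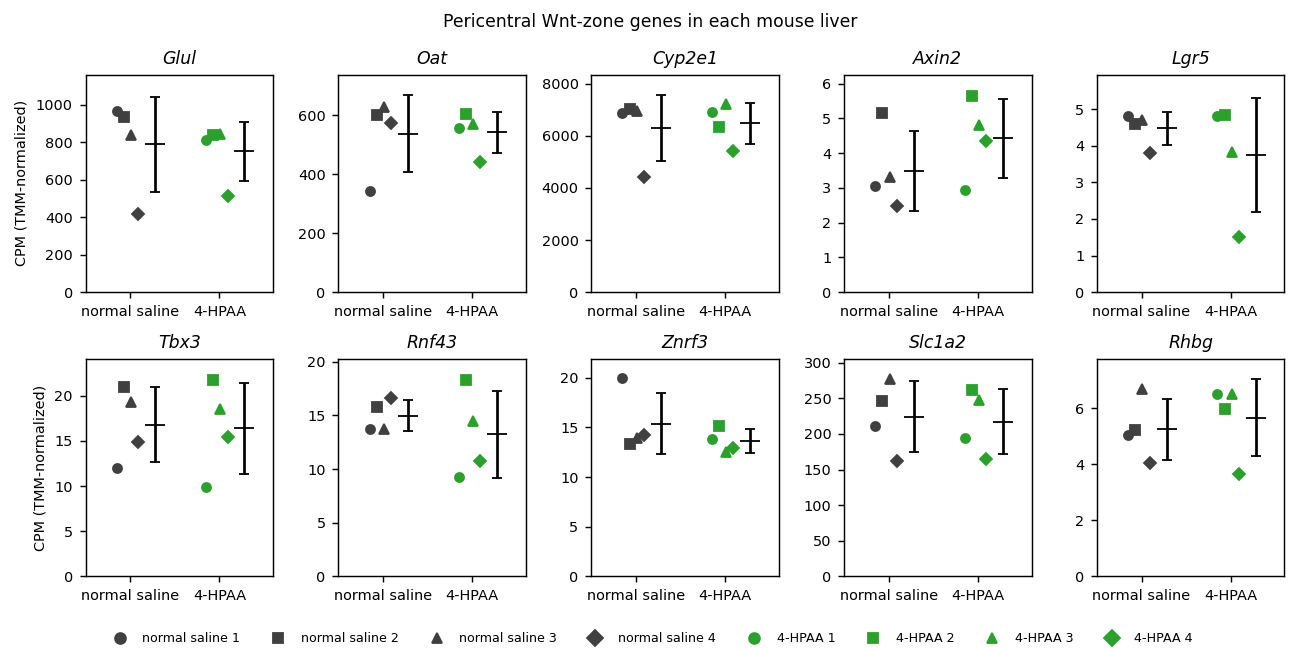
Level of each of the 10 members (CPM, TMM-normalized, axes from 0) in each of the 4 normal saline and 4 4-HPAA livers, with the mean and SD of each group as a bar. The groups overlap in every panel, and the diamonds, replicate 4, are the lowest of both groups for Glul, Cyp2e1, Lgr5, Slc1a2 and Rhbg.

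Glul, glutamine synthetase, joins ammonia to glutamate and marks the innermost ring of pericentral hepatocytes. The gene lies at chr1:153899944-153909723 on the + strand (GRCm38), and 1 transcript carried 98.9% of its counts. Glul was at 965, 935, 837 and 415 CPM in replicates 1 to 4 of normal saline and at 809, 837, 841 and 512 CPM in those of 4-HPAA. In both groups replicate 4 was far below the other libraries, which stayed close together. The means were 788 ± 255 and 750 ± 159 CPM (SD, n = 4), a log2 fold change of -0.072 (SE 0.26, 95% interval -0.64 to 0.50), which was smaller than the spread between mice.

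Slc1a2, a glutamate transporter, supplies pericentral hepatocytes with glutamate and lies at chr2:102658659-102790784 on the + strand. It was at 211, 246, 278 and 162 CPM with normal saline and at 194, 262, 248 and 164 CPM with 4-HPAA. Replicate 4 was again lowest in both groups, and the ranges nearly coincided. The log2 fold change was -0.046 (SE 0.19, 95% interval -0.47 to 0.37). Rhbg, an ammonium transporter of the Rhesus family at chr3:88242874-88254709 on the - strand, was at 5.03, 5.21, 6.69 and 4.05 CPM with normal saline and at 6.53, 5.97, 6.50 and 3.64 CPM with 4-HPAA. Its lowest libraries were also the replicates numbered 4, and its log2 fold change was 0.11 (SE 0.21, 95% interval -0.36 to 0.58).

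Oat, ornithine aminotransferase, turns ornithine toward glutamate and lies at chr7:132557478-132576398 on the - strand. It was at 345, 602, 630 and 573 CPM with normal saline and at 556, 604, 570 and 443 CPM with 4-HPAA. Here the low libraries differed from those of Glul: replicate 1 was lowest with normal saline, while replicate 4 was lowest with 4-HPAA. The log2 fold change was 0.016 (SE 0.18, 95% interval -0.39 to 0.42).

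Cyp2e1, a cytochrome P450 that oxidizes ethanol and acetaminophen, was the most abundant member and lies at chr7:140763739-140774987 on the + strand. It was at 6859, 7007, 6946 and 4420 CPM with normal saline and at 6895, 6324, 7233 and 5421 CPM with 4-HPAA. Replicate 4 was lowest in both groups. The means were 6308 ± 1260 and 6468 ± 793 CPM (SD, n = 4), with a log2 fold change of 0.036 (SE 0.17). With a 95% interval from 0.791 to 1.33 as a fold, Cyp2e1 was among the more tightly bounded members.

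Of the Wnt feedback genes, Axin2 had the largest estimate of the 10 in either direction. Axin2 builds the complex that degrades beta-catenin, is itself switched on by beta-catenin, and lies at chr11:108920349-108950783 on the + strand. It was at 3.05, 5.15, 3.31 and 2.47 CPM with normal saline and at 2.93, 5.64, 4.82 and 4.34 CPM with 4-HPAA, from 72 to 169 counts per library. In both groups replicate 2 was highest, and replicate 1 of 4-HPAA lay below 3 of the 4 normal saline values. The means were 3.49 ± 1.16 and 4.43 ± 1.13 CPM (SD, n = 4), and the log2 fold change of 0.34 (SE 0.26, 95% interval -0.23 to 0.91) had an unadjusted p of 0.208 and an adjusted p of 1.00 in edgeR's quasi-likelihood test. Without replicate 2 of normal saline the estimate was 0.59 and without replicate 2 of 4-HPAA it was 0.21.

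Rnf43 and Znrf3 are membrane ubiquitin ligases that remove Frizzled receptors from the cell surface, and R-spondins bound to Lgr receptors clear them. Rnf43 (chr11:87662722-87735539, + strand) was at 13.7, 15.7, 13.8 and 16.7 CPM with normal saline and at 9.29, 18.3, 14.5 and 10.7 CPM with 4-HPAA. The 4-HPAA livers held both the highest and the lowest value, and the log2 fold change was -0.18 (SE 0.19, 95% interval -0.60 to 0.25). Znrf3 (chr11:5276324-5444847, - strand) was at 19.9, 13.3, 13.9 and 14.3 CPM with normal saline and at 13.9, 15.2, 12.5 and 12.9 CPM with 4-HPAA. Apart from replicate 1 of normal saline its libraries lay close together, and the log2 fold change was -0.18 (SE 0.13).

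Lgr5, the R-spondin receptor that also marks stem cells in the intestine, lies at chr10:115450311-115587780 on the - strand. It was at 4.81, 4.60, 4.69 and 3.81 CPM with normal saline and at 4.82, 4.83, 3.82 and 1.50 CPM with 4-HPAA. Replicate 4 of 4-HPAA, with 43 counts, stood well below the other libraries, which held 111 to 150. The log2 fold change of -0.26 (SE 0.30) rested on that library: without it the estimate was -0.0025. Tbx3, a T-box transcriptional repressor at chr5:119670669-119684724 on the + strand, was at 12.0, 21.0, 19.3 and 14.9 CPM with normal saline and at 9.88, 21.7, 18.6 and 15.4 CPM with 4-HPAA. The order of the replicates by Tbx3 level was the same in both groups, and the log2 fold change was -0.034 (SE 0.24, 95% interval -0.57 to 0.50).

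**Figure D2:**
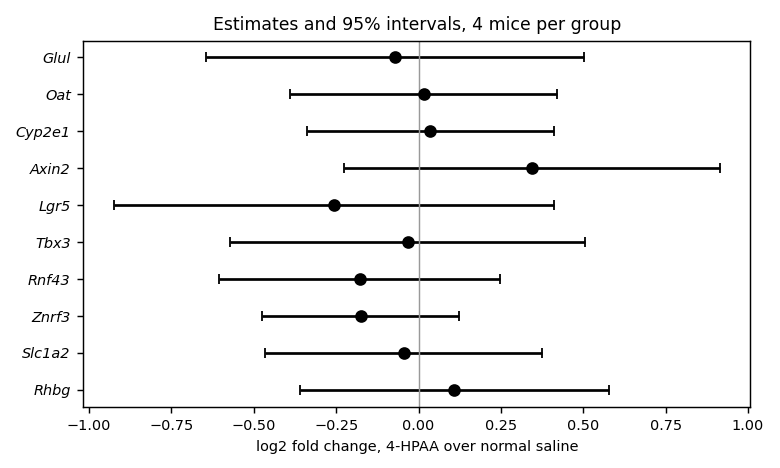
Log2 fold change of each member, 4-HPAA over normal saline, with its 95% interval from edgeR's quasi-likelihood fit (4 mice per group). Every interval crosses 0, and the estimates run from -0.26 for Lgr5 to 0.34 for Axin2.

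Compared per transcript length, the members spanned a wide range of levels. On the TPM scale, which divides counts by transcript length before scaling each library to one total, Cyp2e1 averaged 5737 ± 942 (SD, n = 8 livers) and ranked 31 of 35975 genes. Glul followed at 478 ± 131 TPM, Oat at 410 ± 73.4 TPM and Slc1a2 at 54.3 ± 14.9 TPM. The metabolic genes were thus well apart from the Wnt feedback genes and Tbx3: Rnf43 was at 7.38 TPM, Tbx3 at 6.64, Rhbg at 4.60, Znrf3 at 4.07, Axin2 at 2.15 and Lgr5 at 1.64. Rhbg was the metabolic member that lay among them. Neighbours in this order overlapped for Glul and Oat (Glul higher in 6 of 8 livers), Rnf43 and Tbx3 (5 of 8), Tbx3 and Rhbg (7 of 8), Rhbg and Znrf3 (5 of 8), and Axin2 and Lgr5 (4 of 8), whereas the other 4 steps did not overlap.

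**Figure D3:**
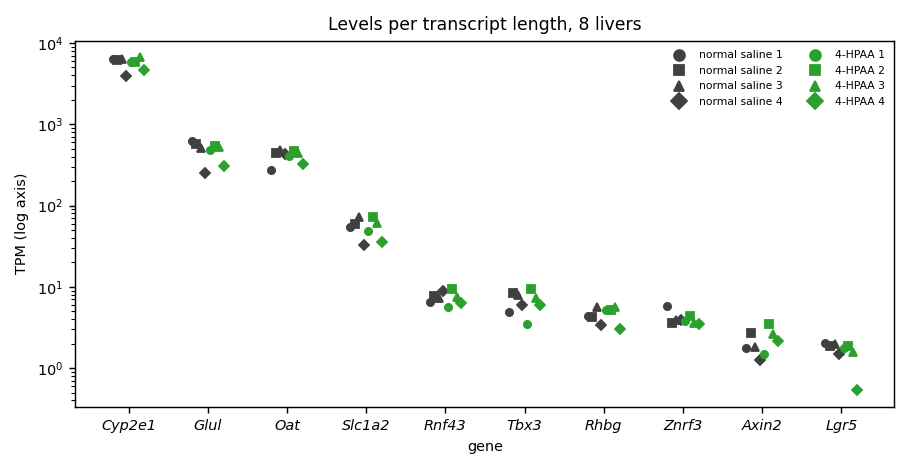
TPM of each member (log axis) in each of the 8 livers, ordered by mean level. Cyp2e1 stands alone at the top, Glul and Oat overlap, and the 6 lowest members lie between 0.539 and 9.41 TPM.

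A pattern shared by 5 of the 10 members was the low level in replicate 4 of both groups, seen after the values were examined and therefore given with no test. Glul, Cyp2e1, Lgr5, Slc1a2 and Rhbg were lowest in replicate 4 of both groups, as were 14.9% of all genes tested. Oat, Axin2, Tbx3, Rnf43 and Znrf3 were not, and for Rnf43 replicate 4 was the highest saline liver (16.7 CPM). The median deviation of the 10 members from each gene's mean over the 8 livers was -0.25 on the log2 scale in replicate 4 of normal saline and -0.31 in replicate 4 of 4-HPAA, and lay between -0.024 and 0.23 in the other 6 livers. Of 35 other pericentral genes tested, 21 were lowest in both of these livers. Cyp2c37, a cytochrome P450 of the same zone, was at 205, 268, 288 and 109 CPM with normal saline and at 349, 266, 263 and 97.6 CPM with 4-HPAA, and Nkd1, a Wnt inhibitor and target, was at 3.01, 2.68, 2.76 and 1.65 CPM and at 2.72, 3.43, 3.75 and 0.874 CPM. Both genes were chosen as examples after their values were seen.

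Genes of the opposite, periportal zone were high in the same livers. Of 27 periportal genes tested, 12 were highest in replicate 4 of both groups, beside 12.3% of all genes, and 1 was lowest in both. Gls2, the glutaminase that opens the periportal urea pathway, was at 279, 291, 296 and 560 CPM with normal saline and at 324, 331, 336 and 447 CPM with 4-HPAA. Its highest liver in each group was the one with the least Glul. The pattern was not shared by every periportal gene: Cps1, the first enzyme of the urea cycle, was at 4714, 3898, 4402 and 4410 CPM and at 4220, 4699, 4619 and 4538 CPM, and Cyp2f2, a periportal cytochrome P450, was at 830, 1075, 1123 and 1229 CPM and at 1353, 1082, 921 and 1013 CPM.

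Markers of several cell types other than hepatocytes were low in the same livers. Of 16 endothelial markers tested, 14 were lowest in replicate 4 of both groups, beside 14.9% of all genes tested. Lyve1 was among the exceptions: in replicate 4 of 4-HPAA it was at 2.13 times the mean of the other livers of that group. The list, Wnt9b included, summed to 284, 260, 289 and 207 CPM with normal saline and to 290, 332, 263 and 191 CPM with 4-HPAA. Kupffer cell and leukocyte markers were lowest there for 8 of 10 (sums from 97.5 to 314 CPM) and stellate cell markers for 7 of 10 (168 to 307 CPM), against 0 of 5 cholangiocyte markers (23.9 to 46.1 CPM). Hepatocyte markers were highest there for 3 of 8. Ly6g, a neutrophil marker, was at 0 in 7 of 8 libraries, and none of the endothelial or stellate markers was at 0 in any. The part of these cells in the low pericentral values was not tested. Without both libraries numbered 4, 0 members passed the test between treatments in edgeR, as with them.

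**Figure D4:**
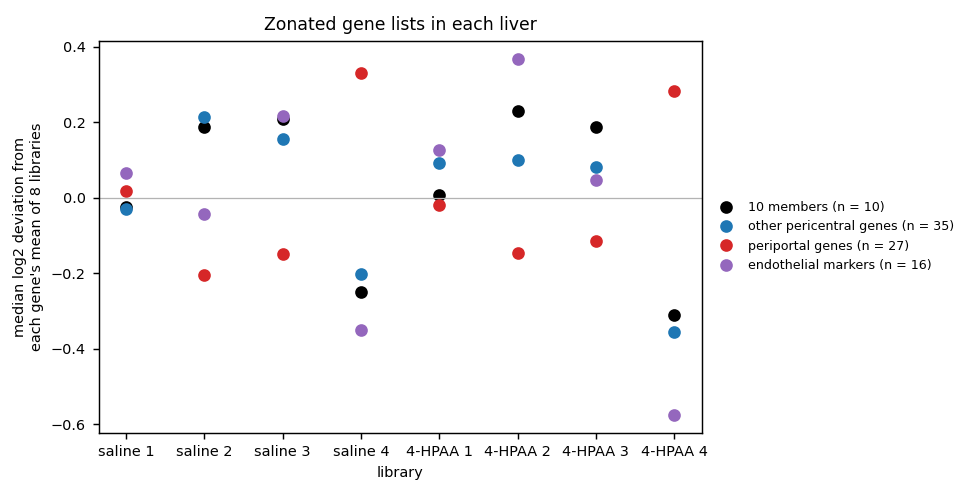
Median log2 deviation of the genes of 4 lists from each gene's mean over the 8 livers (y axis), for each library (x axis). In replicate 4 of both groups the 10 members, the other pericentral genes and the endothelial markers lie below 0 and the periportal genes above 0.

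The endothelial signals that act on these hepatocytes were measured at low levels. Wnt2, a ligand of central vein endothelium, was at 1.47, 1.41, 1.80 and 1.03 CPM with normal saline and at 1.99, 2.30, 1.42 and 0.944 CPM with 4-HPAA (log2 fold change 0.22, SE 0.28). Rspo3, the R-spondin of the central vein, was at 2.31, 2.98, 3.21 and 1.75 CPM and at 1.96, 2.97, 3.14 and 1.57 CPM (log2 fold change -0.088, SE 0.27). Both were lowest in replicate 4 of each group. Wnt9b, the other central vein ligand, held 9 to 26 counts per library and was not tested, since 1 library was under 10 counts.

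Members were then compared with each other across the 8 livers. Of the 45 pairs, 38 had a Pearson r above 0 (median 0.32), and by an exact permutation test over all possible pairings, two-sided, 0 passed an adjusted p of 0.05 for either Pearson's r or Spearman's rho. Glul and Cyp2e1 had the highest r, 0.95 (exact permutation p = 0.00809, adjusted p = 0.199), with a rho of 0.69 (exact permutation p = 0.0694, adjusted p = 0.470). Without replicate 4 of each group, the livers farthest from the median of Glul, r was 0.13, so that the relation rested on these livers. The same held for Glul and Slc1a2 (r = 0.79, exact permutation p = 0.0199, adjusted p = 0.199), where r without them was -0.14.

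The Wnt feedback gene Axin2 was paired most closely with Tbx3 instead (r = 0.72, exact permutation p = 0.0461, adjusted p = 0.230; rho = 0.86, exact permutation p = 0.0107, adjusted p = 0.470). Without the livers farthest from the Axin2 median, replicate 4 of normal saline and replicate 2 of 4-HPAA, r was 0.76. Within groups it was 0.69 with normal saline and 1.00 with 4-HPAA, over 4 livers each. Glul and Axin2 had an r of 0.39 (exact permutation p = 0.363, adjusted p = 0.707; rho = 0.38, exact permutation p = 0.360, adjusted p = 0.771), and -0.0027 without the replicates numbered 4. Oat and Glul had an r of -0.030 (exact permutation p = 0.968, adjusted p = 0.997; rho = -0.048, exact permutation p = 0.935, adjusted p = 0.956).

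**Figure D5:**
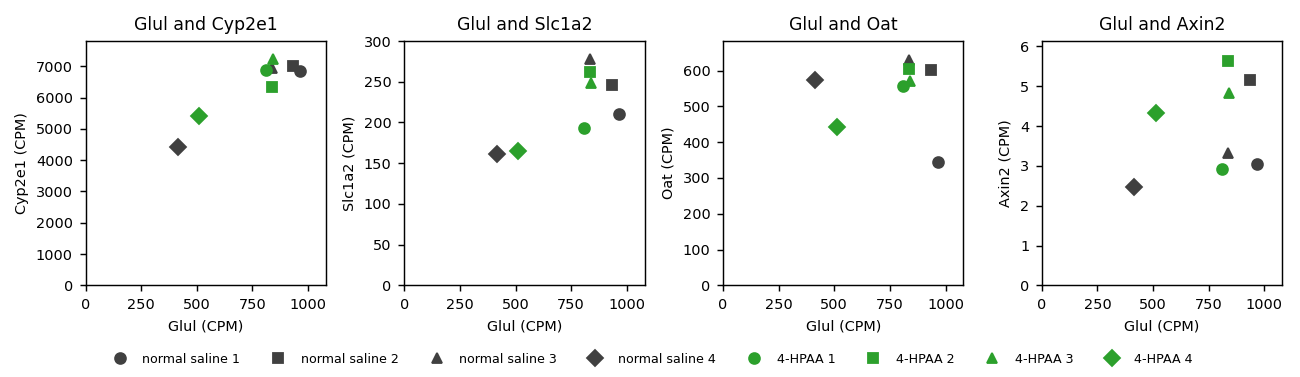
Level of Cyp2e1, Slc1a2, Oat and Axin2 (y axes, CPM) against that of Glul (x axis, CPM) in the 8 livers, all axes from 0. In the Cyp2e1 and Slc1a2 panels the replicate 4 livers, drawn as diamonds, lie apart at low values of both genes.

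Among all 12882 other genes tested, those most like Glul over the 8 livers, by Pearson's r of log2 CPM and as a description only, were Serpina12 (0.99), Rdh9 (0.98), Cdk16 (0.96), Npr2 (0.96) and Marcks (0.96). Among those most like Axin2 were Actr3 (0.95), Rhoq (0.91), Ccdc85b (0.89) and Iars2 (0.89). An r above 0.9 was reached by 0.505% of genes with Glul and by 0.0155% with Axin2, and all of these points share the same 8 libraries.

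The rest of the pathway was compared in the same way, and 0 genes passed the adjusted test in any list. Of the Wnt ligands, R-spondins and their secretion genes, 9 of 25 were abundant enough to test, with 5 estimates above 0 and 4 below and a median of 0.051. In each list the most abundant genes were taken by mean TPM and are given in CPM. Here they were Wnt5b, a ligand (7.75 ± 1.23 against 7.13 ± 1.01 CPM, SD, n = 4, normal saline first), and Porcn, which adds the lipid that Wnt proteins need (3.76 ± 0.476 against 3.45 ± 0.442 CPM). Of the receptors and co-receptors, 12 of 17 were tested, with 9 above 0, 3 below and a median of 0.059. Lgr4, the R-spondin receptor of most hepatocytes, was at 68.9 ± 3.15 and 67.8 ± 7.26 CPM, with a log2 fold change of -0.025 (SE 0.087), and Ryk, a Wnt co-receptor, was at 37.2 ± 3.41 and 38.7 ± 2.18 CPM.

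Receptors also held the list genes with the smallest p. Fzd7 was at 9.75, 10.7, 9.87 and 11.4 CPM with normal saline and at 11.2, 11.9, 19.2 and 16.3 CPM with 4-HPAA (log2 fold change 0.49, SE 0.17, edgeR's unadjusted p = 0.0142, adjusted p = 1.00). Fzd5 was at 6.06, 4.36, 6.17 and 6.35 CPM and at 6.84, 6.94, 8.02 and 7.34 CPM (log2 fold change 0.35, SE 0.14, edgeR's unadjusted p = 0.0298, adjusted p = 1.00). Both encode Frizzled receptors and were singled out after their values were seen. The 4-HPAA values of Fzd5 all lay above those of normal saline, while those of Fzd7 overlapped at replicate 1. Over all genes tested, the groups did not overlap in 1.2%, in either direction, and 1.75% had an unadjusted p under 0.05 in edgeR's quasi-likelihood test. In the TCF/LEF list, 1 gene also had groups that did not overlap.

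Inside the cell, the estimates for beta-catenin and its destruction complex were closer to 0. For beta-catenin and its destruction complex, 18 of 19 genes were tested, with estimates from -0.070 to 0.11 and a median of 0.040. Ctnnb1, beta-catenin itself, was at 159 ± 5.30 and 163 ± 7.94 CPM (log2 fold change 0.042, SE 0.069), and Csnk1a1, a kinase of the complex, at 91.9 ± 7.38 and 97.1 ± 8.20 CPM. For TCF/LEF factors and co-factors, 16 of 19 were tested, with estimates from -0.23 to 0.18 and a median of 0.026. Tcf7l2, a TCF factor of liver, was at 14.8 ± 2.89 and 13.1 ± 1.38 CPM (log2 fold change -0.18, SE 0.14), Hnf4a, the hepatocyte nuclear receptor, at 611 ± 71.7 and 622 ± 37.0 CPM, and the co-repressor Tle1 at 38.9 ± 3.95 and 40.0 ± 5.74 CPM.

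Inhibitors and general targets also had estimates on both sides of 0, but over wider ranges. They ran from -0.44 to 0.28 for inhibitors and from -0.97 to 0.53 for general targets. Of the inhibitors, 10 of 22 were tested (5 above 0, 5 below, median 0.0064), led by Notum, which removes the lipid of Wnt proteins, at 25.3 ± 3.43 and 27.2 ± 3.10 CPM, and Ctnnbip1, which binds beta-catenin, at 12.1 ± 1.76 and 12.3 ± 1.43 CPM. Of the general Wnt targets, 14 of 19 were tested, with 6 above 0, 8 below and a median of -0.045. Vegfa, the most abundant of them, was at 150 ± 7.46 and 143 ± 14.9 CPM.

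For the metabolic neighbours of Glul and Oat, 24 of 29 glutamine, glutamate and ornithine genes were tested, with 10 above 0, 14 below and a median of -0.024. The glutamine transporter Slc38a3 was at 1542 ± 280 and 1558 ± 287 CPM, and the amino acid transporter Slc38a4 at 1412 ± 212 and 1471 ± 151 CPM. Of the other pericentral genes, 35 of 36 were tested, with 13 above 0, 22 below and a median of -0.050. Cyp7a1, the rate-limiting enzyme of bile acid synthesis, had a log2 fold change of -0.60 (SE 0.25, edgeR's unadjusted p = 0.0383, adjusted p = 1.00), at 296, 423, 279 and 277 CPM with normal saline and 202, 298, 225 and 118 CPM with 4-HPAA. Slc1a4, a neutral amino acid transporter, had one of -0.63 (SE 0.27, edgeR's unadjusted p = 0.0384, adjusted p = 1.00), from 24 to 72 counts per library. The most abundant of this list by mean TPM, though not by CPM, were Gstm1 (876 ± 202 and 813 ± 126 CPM), a glutathione transferase, and Mup17. Mup17 ranged from 37.8 to 1078 CPM and was lowest in replicate 4 of both groups (68.0 CPM with normal saline, 37.8 CPM with 4-HPAA). Its values are uncertain because major urinary protein genes are nearly identical, and whether this affects the range was not tested. Gstm1 also has close paralogs. The 27 periportal genes had 14 estimates above 0 and 13 below, with a median of 0.00072, and the most abundant were Trf, transferrin (13730 ± 1888 and 12373 ± 1425 CPM), and Pck1, a gluconeogenic enzyme (4646 ± 638 and 4648 ± 474 CPM).

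Single transcripts of the members were also compared. Of 24 member transcripts whose rounded counts reached 10 in every library, 1 had an unadjusted p under 0.05, beside 3.83% of the 25533 transcripts tested, and 0 had an adjusted p under 0.05 in edgeR's quasi-likelihood test. That one was ENSMUST00000079719, a protein-coding transcript of Tbx3, with a log2 fold change of 1.80 (SE 0.54, edgeR's unadjusted p = 0.00798, adjusted p = 1.00). Its estimated counts were 37.0, 9.96, 57.9 and 18.0 with normal saline and 71.5, 157, 151 and 41.5 with 4-HPAA, so that the groups overlapped. Its share of Tbx3 was 6.38% ± 4.16 in the saline livers and 21.3% ± 7.94 in those given 4-HPAA (SD, n = 4), while the gene as a whole had an estimate near 0. The division of reads among the isoforms of one gene is estimated and not observed: the Rnf43 transcript ENSMUST00000165679, for instance, was estimated at 111, 124, 0.00053 and 100 counts with normal saline and at 3.57, 147, 0 and 0 with 4-HPAA.

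Several members share their position with another annotated gene. Overlap was taken over whole gene spans, introns included, and whether any reads were divided between the genes was not examined. Glul overlaps Mir8114 and Teddm2, Oat overlaps Fgfr2, Axin2 overlaps Gm11670, Lgr5 overlaps A930009A15Rik, Tbx3 overlaps Tbx3os1, Rnf43 overlaps 1110028F11Rik and Gm25968, Slc1a2 overlaps Gm13872 and Rhbg overlaps Gm38392. The library kit marks strand, whereas the methods give standard kallisto parameters for the counting and name no strand setting. Cyp2e1 and Znrf3 overlap no annotated gene.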

How the data were processed

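Bulk RNA-seq of 8 mouse livers was analysed, 4 infused with normal saline and 4 with 4-HPAA, each a separate mouse. The authors checked paired-end reads of 100 bp with FastQC 0.11.9, joined the reads of the flow cells and pseudo-aligned them with kallisto to mouse transcripts. They deposited estimated counts per transcript and library, neither normalized nor pooled across mice. The methods name NCBI annotations of GRCm38.p6, whereas the transcripts are listed by Ensembl identifiers. All 8 columns were matched to their mice by name, leaving 0 unmatched.

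Gene totals were formed from these values by GENCODE M21 (116728 of 119414 transcripts matched; 0.703% to 1.06% of counts per library were not) and rounded. Genes reaching 10 counts in all 8 libraries entered the test, with TMM and edgeR 4.0.16 (glmQLFit and glmQLFTest, R 4.3.3), with Benjamini-Hochberg adjustment over all genes at 0.05. DESeq2 1.42.0 and limma 3.58.1 (voom) were alternatives, with other scalings and filters, a replicate block and each library left out in turn. Correlations used log2 CPM with a prior count of 2. TPM was computed from transcript lengths. At this depth the spread between mice, more than counting error, sets the precision of the abundant members. The fits were first tested on simulated data.

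All members were named. From each list, the 2 genes of highest mean TPM were named where none passed the test, and Wnt2, Wnt9b, Rspo3, Lgr4, Ctnnb1, Tcf7l2, Gls2, Cps1 and Cyp2f2 by name, with the 5 genes most like Glul and Axin2, of which 1 is not reported here. The members and lists were chosen with earlier results of these data known. Tle5 was not matched.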

Additional observations from a re-analysis of the deposited data

Results flagged for a closer look

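Each member was checked in each group of 4 for 1 library far from the other 3, 20 groups in all, and chance alone flags about 1 in 20. Glul in replicate 4 of 4-HPAA was at 512 CPM, against 809 to 841 in the other 3 livers of that group, a gap of 0.903 of the group's range. Cyp2e1 in replicate 4 of normal saline was at 4420 CPM, against 6859 to 7007, a gap of 0.943 of the range. Znrf3 in replicate 1 of normal saline was at 19.9 CPM, against 13.3 to 14.3, a gap of 0.862 of the range. Dixon's critical value for 4 samples was the threshold. What set these libraries apart was not tested.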

How the results depend on the processing

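No setting brought any member or list gene past the threshold: both counts were 0 in each alternative run, each library left out included. Member pairs were tested again only without normalization factors and on deviations from the group means, and 0 pairs passed in either. Over all genes DESeq2 called 2, Zfp36l2 (log2 fold change 0.76) and Ggnbp1 (-0.65), and leaving out each library in turn gave 0 to 1 calls. The 1 call, without replicate 1 of 4-HPAA, was CAAA01147332.1 (1.38). These genes were named after their values were seen, and the cause was not tested. Axin2 stayed above 0 in every setting (0.21 to 0.59 with each library left out), as did Rhbg (0.0038 to 0.27), while Rnf43 (-0.38 to -0.042) and Znrf3 (-0.24 to -0.024) stayed below 0. With each library left out, the other estimates ranged from -0.28 to 0.069 for Glul, -0.15 to 0.10 for Oat, -0.10 to 0.11 for Cyp2e1, -0.40 to -0.0025 for Lgr5, -0.20 to 0.15 for Tbx3 and -0.17 to 0.074 for Slc1a2, and all of these but Lgr5 reversed sign in at least 1 of them. An unadjusted p under 0.05 in edgeR was reached by 1 member in each of 3 settings, beside 196 of 12916, 253 of 12908 and 285 of 13056 genes tested. These were the smallest p of the members in those settings. In edgeR's quasi-likelihood test p was 0.0286 without replicate 2 of normal saline (Axin2) and 0.0384 without replicate 2 of 4-HPAA (Rnf43). It was 0.0444 without the pair of libraries of high globin counts (Axin2, 0.59). That pair (replicate 2 of normal saline and replicate 4 of 4-HPAA) and the pair numbered 4 were left out as alternatives chosen after the data were seen. Without the first pair, Glul was at 0.16, Lgr5 at 0.0073, Tbx3 at 0.11 and Slc1a2 at 0.11, each reversed; without the second, Cyp2e1 was at -0.026, reversed, and the other 9 members kept their sign. The cause of these changes was not tested. The labels do not say whether a replicate number marks shared handling, and the mice were treated as unpaired. Deviations of same-numbered libraries correlated at 0.040, 0.17, 0.27 and 0.48 over all genes (other pairs -0.078 on average) and at 0.48, 0.21, 0.55 and 0.17 over the members (other pairs -0.098), and 4 of 8 libraries correlated best with their own number in the other group. Deviations were taken from each group's mean, so other pairs are pushed below 0 when same-numbered pairs lie above it. The other pairs are therefore no separate baseline. With the replicate block edgeR called 0 genes, with 336 at an unadjusted p under 0.05 against 225 without it, and 0 members; its smallest adjusted p was 0.118 over all genes and 1.00 among the members. Standard errors were smaller with it, 0.11 against 0.26 for Glul, 0.087 against 0.24 for Tbx3 and 0.080 against 0.19 for Slc1a2, so the intervals of the unpaired fit depend on this choice. Depth limits Lgr5, Axin2 and Rhbg most, with 43 to 204 counts per library.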
